A study of Mus musculus with 2 samples.

Results

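Cholesterol synthesis was examined through 8 genes of the pathway, *Srebf2*, *Insig1*, *Hmgcs1*, *Idi1*, *Fdps*, *Sqle*, *Cyp51* and *Sc5d*, in mouse embryonic stem cells (ESCs) that lack the histone methyltransferase G9a. The genes were named with earlier results of these data known, and all 8 were measured, by 19 of the 34958 probe sets that carry 1 gene symbol and stand for 18194 genes. All 8 encode regulators or enzymes of synthesis, and no receptor for uptake is among them. The G9a-KO group is 1 array of TT2-derived ESCs from which exons 26 and 27 of the remaining *G9a* allele were deleted, the other allele being a mutant one from earlier targeting. These exons encode the catalytic core of the SET domain. The WT group is 1 array of TT2 ESCs, a line made from an F1 embryo (C57BL/6 female, CBA male). For both samples the labels describe 48 h in 800 nM 4-hydroxytamoxifen, used to delete the floxed allele, and 48 h more after its removal, but whether WT cells received the drug is not stated for that sample alone. The methods of the study instead list *G9a*-KO ESCs as a null line kept on inactivated embryonic fibroblasts, and they give serum with LIF where the labels give serum replacement, a little fetal calf serum and LIF. Each group is a single culture with no replicate, so no difference below can be set against a spread between cultures, and no test was possible.

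Cells make cholesterol from acetyl-CoA. The mevalonate part of the pathway builds isoprenoid units and joins them to farnesyl pyrophosphate, and the sterol part closes squalene into a ring and trims it to cholesterol. SREBP2, encoded by *Srebf2*, is the main transcription factor of these genes. It is held in the endoplasmic reticulum by INSIG proteins when sterols are plentiful, and released, cut and sent to the nucleus when they are scarce, so that the enzymes and *Insig1* usually go up and down together.

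On these arrays the 8 genes did not go together. *Cyp51* was 2.00-fold higher in G9a-KO and *Idi1* was 1.69-fold lower, and the other 6 stayed within 1.3-fold. The median log2 difference of the 8 genes (the G9a-KO level less the WT level) was -0.059, beside 0.036 over all 18194 genes. Of the 8, 1 was over 1.3-fold higher, where 17.4% of all genes were, and 1 was over 1.3-fold lower, where 17.2% of all genes were. None of the 8 passed 2-fold, which 4.61% of all genes passed upwards and 3.76% downwards, and *Cyp51* lay just under it. Each count is about what these shares of all genes would give for 8 genes. These counts use the brightest probe set of each gene, that is, the one with the highest mean over both arrays. All levels are log2 values with the 75th percentile of their array set to 0, a scale on which the median of all probe sets lay at -2.13 in G9a-KO and -2.24 in WT. As these are whole cultures, a different mix of cells and a different amount of RNA per cell cannot be told apart.

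**Figure D1:**
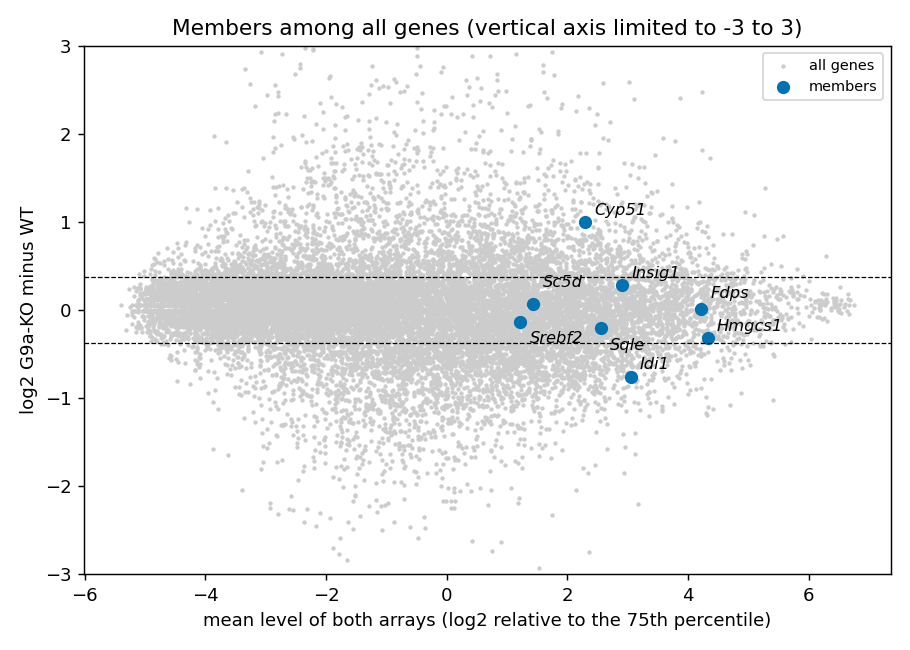
Log2 difference, G9a-KO less WT (vertical axis), by mean log2 level over the pair of arrays (75th percentile set to 0, horizontal axis) for all genes (grey) and the 8 cholesterol genes (blue), 1 point per gene from 1 array per group, with dashed lines at 1.3-fold. *Cyp51* (1.00) lies above the upper line and *Idi1* (-0.76) below the lower line, and 84 genes beyond 3 in either direction are not drawn.

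Promoter sequences are shown for 3 of the genes, *Idi1* and *Cyp51* because they had the lowest and the highest difference, and *Hmgcs1* because its window alone held the sterol regulatory element searched for. RefSeq windows of 250 bases before to 50 bases after the transcription start were found for 6 of the 8 genes, 1 window each. They were searched on both strands for the sterol regulatory element TCACNCCAC, to which SREBP proteins bind, the CCAAT box (CCAAT), to which NF-Y binds, and the GC box (GGGCGG), to which Sp1 binds. No match of one motif overlapped a match of another. The 250 bases before the start are printed from 5′ to 3′ on the strand of the gene, with the sterol regulatory element and the CCAAT boxes (ATTGG on the other strand) in capitals.
Idi1 upstream region (GRCm38.p6, chr13:8885356-8885605, + strand): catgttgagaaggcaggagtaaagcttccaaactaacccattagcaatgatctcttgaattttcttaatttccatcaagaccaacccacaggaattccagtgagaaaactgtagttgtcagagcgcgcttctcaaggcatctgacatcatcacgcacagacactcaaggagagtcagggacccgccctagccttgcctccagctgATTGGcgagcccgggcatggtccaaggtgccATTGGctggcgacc
Cyp51 upstream region (GRCm38.p6, chr5:4104698-4104947, - strand): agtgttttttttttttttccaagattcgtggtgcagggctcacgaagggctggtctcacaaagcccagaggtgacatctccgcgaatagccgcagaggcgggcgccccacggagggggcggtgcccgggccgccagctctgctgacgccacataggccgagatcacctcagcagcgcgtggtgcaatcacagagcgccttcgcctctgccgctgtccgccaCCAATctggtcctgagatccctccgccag
Hmgcs1 upstream region (GRCm38.p6, chr13:119690101-119690350, + strand): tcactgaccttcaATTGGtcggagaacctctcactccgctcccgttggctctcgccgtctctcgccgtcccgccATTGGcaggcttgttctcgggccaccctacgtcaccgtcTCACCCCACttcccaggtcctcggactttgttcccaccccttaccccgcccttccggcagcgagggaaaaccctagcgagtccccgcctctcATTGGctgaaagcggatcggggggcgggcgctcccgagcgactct

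The sterol regulatory element stood in 1 of the 6 windows, that of *Hmgcs1* (first base at -137, counted from the start site), and in 1.24% of all 32851 windows. A CCAAT box was in all 6 windows, and in 37.4% of all windows, with its first base at -45 and -14 in *Idi1* and at -29 in *Cyp51*. A GC box was likewise in all 6 and in 35.7% of all windows. These matches describe the letters only. CCAAT and GC boxes were thus common to all 6 windows, those of the genes with the highest and the lowest difference included. Neither of the latter held the element as spelled here, and a site spelled otherwise would not have been found.

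Of the regulators, *Srebf2* was close to even between the arrays. Its brightest probe set lay at 1.16 in G9a-KO and 1.29 in WT, a difference of -0.13. The second lay at 0.095 in G9a-KO and 0.052 in WT, a difference of 0.043. The 2 probe sets thus differed in opposite directions, both by less than 1.3-fold, and they were designed on the same sequence record. *Insig1*, the retention factor that is itself switched on by SREBP2, has 1 probe set, which lay at 3.05 in G9a-KO and 2.76 in WT. The difference was 0.28 (1.22-fold), higher than in 76.8% of all genes and under the threshold. *Insig1* and *Srebf2* therefore lay on opposite sides of 0 by their brightest probe sets.

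In the mevalonate part, an early step is made by *Hmgcs1*, the cytosolic HMG-CoA synthase. Its brightest probe set lay at 4.17 in G9a-KO and 4.48 in WT, a difference of -0.31 (1.24-fold lower). The next lay at 4.04 in G9a-KO and 4.44 in WT, a difference of -0.40 (1.32-fold lower). All 5 probe sets of *Hmgcs1* were lower in G9a-KO, with differences from -0.026 to -0.40 among those above the median of all probe sets, and 1 of them passed 1.3-fold. Among the 5, 4 came from one sequence record and so are not independent of each other.

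*Idi1*, which isomerizes isopentenyl pyrophosphate to dimethylallyl pyrophosphate, was the lowest of the 8. It lay at 2.67 in G9a-KO and 3.43 in WT by the brightest probe set, a difference of -0.76 (1.69-fold lower). By the other probe set it lay at 1.86 in G9a-KO and 2.66 in WT, a difference of -0.79 (1.73-fold lower). The pair agreed within 0.038, whereas the median range between probe sets above the median was 0.34 over the 5371 genes that have several. Both *Idi1* probe sets came from the same sequence record and so are not independent of each other. Of all genes 6.63%, and 4.95% of the 910 genes at the same level, had a lower difference than *Idi1*.

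*Fdps*, the farnesyl pyrophosphate synthase that closes this part of the pathway, did not follow *Idi1*. It lay at 4.22 in G9a-KO and 4.21 in WT, a difference of 0.014, the smallest of the 8. The sign of so small a value turned with the scaling (-0.042 with no shift and -0.088 with each array centred on its median). Its other probe set was at -4.51 in G9a-KO and -4.56 in WT, below the median of all probe sets. The median of *Hmgcs1*, *Idi1* and *Fdps* was -0.31.

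The sterol part begins with *Sqle*, the squalene epoxidase, which has 1 probe set here. It lay at 2.45 in G9a-KO and 2.66 in WT, a difference of -0.21 (1.16-fold lower) and within the threshold. *Cyp51*, the lanosterol demethylase, was the highest of the 8. Its brightest probe set lay at 2.79 in G9a-KO and 1.79 in WT, a difference of 1.00 (2.00-fold), higher than in 95.4% of all genes and in 94.9% of the 909 genes at the same level. The second lay at 1.70 in G9a-KO and 1.24 in WT, a difference of 0.45 (1.37-fold). The third, just above the median of all probe sets, lay at -1.74 in G9a-KO and -1.85 in WT, a difference of 0.11. All 3 probe sets of *Cyp51* were higher in G9a-KO, and 2 of the 3 by over 1.3-fold. They share 1 sequence record, and their range of 0.89 exceeded the 75th percentile (0.70) of such ranges over all genes, so the direction held over the probe sets and the size did not.

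*Sc5d*, a sterol desaturase near the end of the pathway, had probe sets that ran in both directions. Its brightest probe set lay at 1.47 in G9a-KO and 1.40 in WT, a difference of 0.072. Another, from a different sequence record, lay at -1.70 in G9a-KO and -1.04 in WT, a difference of -0.66 (1.58-fold lower). The remaining probe set was below the median on both arrays, at -3.14 in G9a-KO and -2.99 in WT. Which direction *Sc5d* took therefore depended on the probe set, and the sign of the brightest also turned under median centring (-0.030). The median of *Sqle*, *Cyp51* and *Sc5d* was 0.072, the value of *Sc5d*, and it turned to -0.030 under median centring and to -0.21, the value of *Sqle*, with the mean over probe sets or the probe set of the largest absolute difference.

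**Figure D2:**
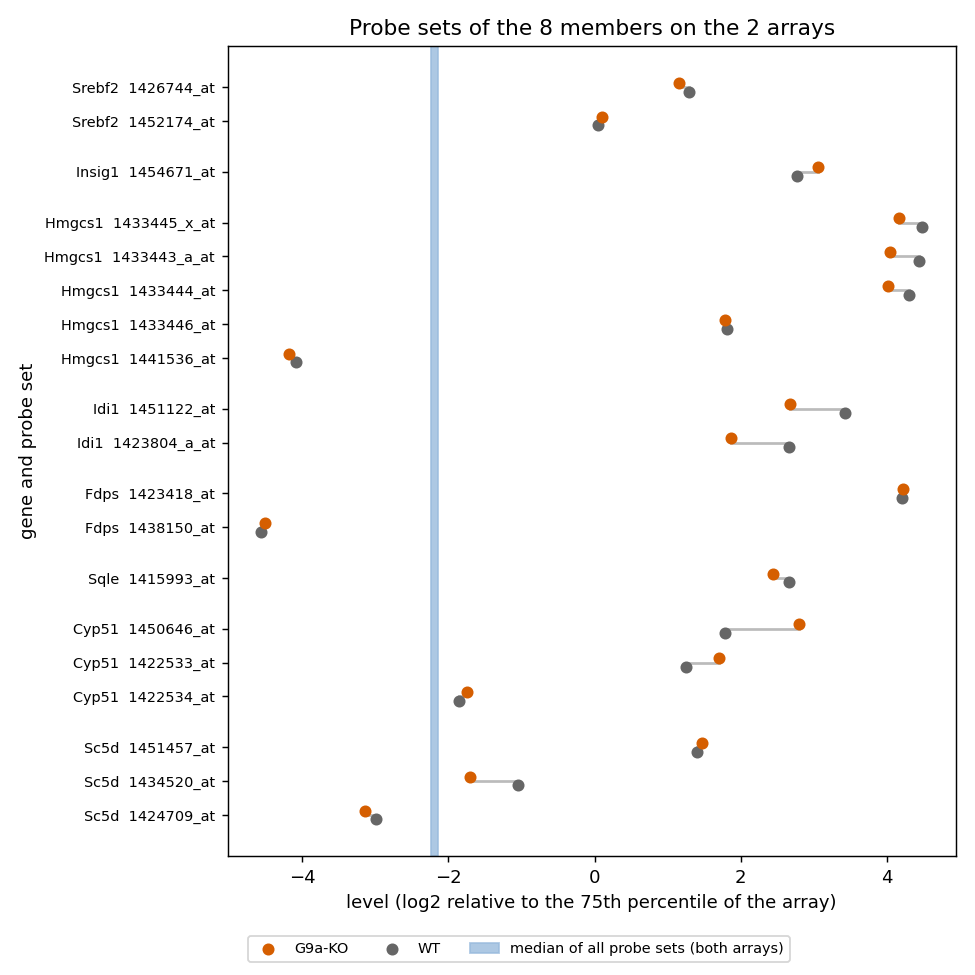
Log2 level of each probe set of the 8 genes (75th percentile set to 0, horizontal axis) on the G9a-KO array (orange) and the WT array (grey), 1 point per array, with the pair joined by a line and the median of all probe sets as a blue band. Both probe sets of *Idi1* lie further left in G9a-KO and all 3 of *Cyp51* further right, while the probe sets of *Sc5d* above the band run both ways.

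Under the rule of the study, by which 1 probe set past the fold is enough, 1 of the 8 genes was over 1.3-fold higher (*Cyp51*), beside 24.6% of all genes, and 3 were lower (*Hmgcs1*, *Idi1* and *Sc5d*), beside 22.0% of all genes. Genes with more probe sets have more chances under this rule. Above the median, 5 members had more than 1 probe set, and in 3 of them all such probe sets ran in one direction (*Hmgcs1*, *Idi1* and *Cyp51*), as in 65.6% of the 5371 such genes.

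The rest of the pathway was described from a list of 14 further synthesis enzymes, of which 11 were measured and 3 were not analysed here. By the brightest probe set, 1 of the 11 was over 1.3-fold higher, 3 were lower and 7 stayed within, with a median of -0.12. *Msmo1*, the sterol methyl oxidase that acts downstream of *Cyp51*, was higher, at 3.38 in G9a-KO and 2.96 in WT (1.34-fold), but its difference of 0.42 was 0.32 under median centring and 0.36 with no shift, both under the threshold. The lower enzymes were *Tm7sf2*, a sterol reductase (1.48-fold), *Lss*, the lanosterol synthase (1.46-fold), and *Mvk*, the mevalonate kinase (1.31-fold). Other probe sets of *Lss* differed by 0.19 and -0.35 and that of *Mvk* by 0.13, none past 1.3-fold, so both calls rest on 1 probe set each, and the brightest of *Lss* is of a kind that can bind several transcripts. *Fdft1*, which makes squalene, lay at 3.92 in G9a-KO and 3.84 in WT, a difference of 0.075 that was -0.027 under median centring. Among all 17 measured enzymes of synthesis, 6 of them members, 2 were over 1.3-fold higher and 4 lower, beside 17.4% and 17.2% of all genes, which for so few enzymes is near the background. The difference of *Lss* turned to 0.19 without the _s_at and _x_at probe sets, so its direction is not settled.

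**Figure D3:**
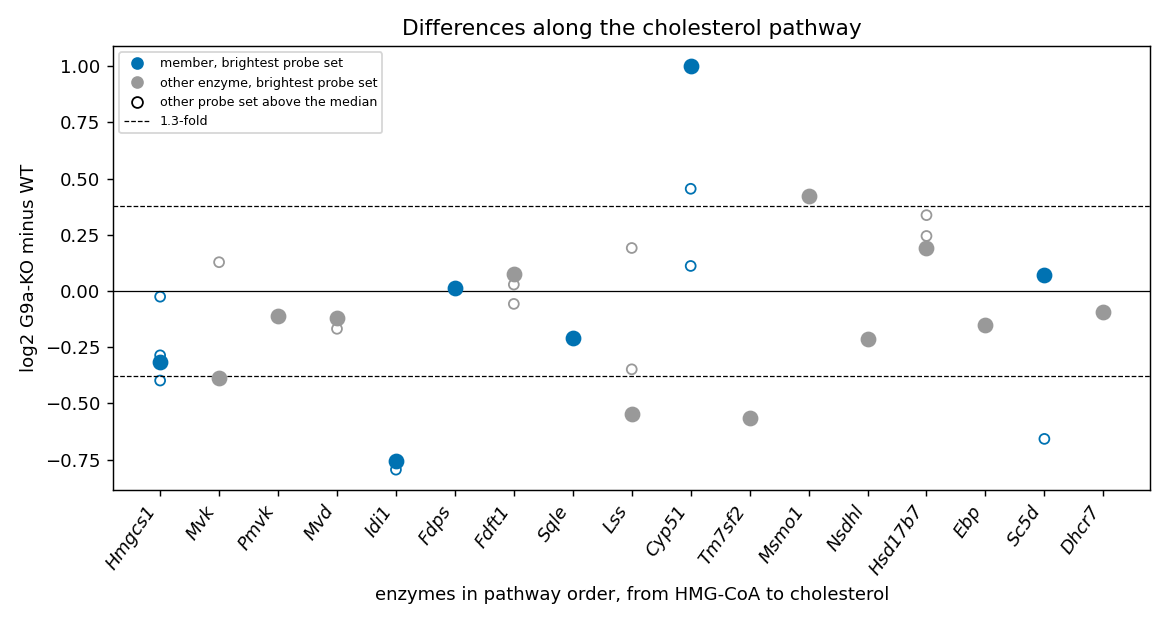
Log2 difference, G9a-KO less WT (vertical axis), for 17 synthesis enzymes in the order of the pathway (horizontal axis), with members in blue, other enzymes in grey, filled points for the brightest probe set and open points for other probe sets above the median, 1 array per group. *Cyp51* (1.00) and *Msmo1* (0.42) lie above the upper dashed line of 1.3-fold, and *Mvk*, *Idi1*, *Lss* and *Tm7sf2* lie below the lower one.

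Genes that process SREBP had a median near 0 by the brightest probe set, while other probe sets of *Mbtps1* and *Insig2* passed 1.3-fold. Of 6 measured, 1 was over 1.3-fold higher and 0 were lower by the brightest probe set, beside 17.4% and 17.2% of all genes. Their median was 0.057. *Mbtps2*, a protease that cuts SREBP, was higher by 0.42, which was 0.31 under median centring, under the threshold. *Mbtps1*, the protease that makes the first cut, differed by -0.043 by its brightest probe set but by 0.84 and 0.83 by the others. The escort gene *Scap* differed by 0.16 and *Srebf1*, the gene of the sister factor SREBP1, by -0.059. *Insig2*, the relative of *Insig1*, differed by -0.21 by its brightest probe set, on the other side of 0 from *Insig1*. Its other probe sets differed by -0.20 and by -0.54 (1.45-fold lower), the latter past the threshold.

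Among genes of cholesterol uptake and release, *Vldlr* and *Abca1* had larger differences than any of the 8 genes, and the others did not. Of 7 measured uptake genes, 3 were over 1.3-fold higher and 0 lower, beside 17.4% and 17.2% of all genes, with a median of 0.35. *Vldlr*, a lipoprotein receptor, lay at 1.90 in G9a-KO and -0.41 in WT (4.95-fold higher), with 6.21-fold and 2.03-fold higher values from the 2 further probe sets that lay above the median. *Scarb1*, the receptor for high-density lipoprotein, lay at 2.41 in G9a-KO and 1.49 in WT (1.88-fold), with 1.91-fold and 1.84-fold by its other probe sets. *Npc1*, which moves cholesterol out of lysosomes, lay at 0.91 in G9a-KO and 0.20 in WT (1.64-fold). Of 4 measured genes of efflux and storage, 1 was over 1.3-fold higher and 0 lower, beside the same shares of all genes. It was the efflux pump *Abca1*, at 0.081 in G9a-KO and -1.57 in WT (3.14-fold). Its 2 other probe sets, below the median, differed by 0.55 and 0.66. Genes that bring cholesterol in and a gene that pumps it out were thus higher on the same array.

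Markers of other cell types also differed between the 2 arrays. Of all genes 17.4% were over 1.3-fold higher and 17.2% lower, the shares to set beside each marker list. Of 17 primitive endoderm markers, 16 were over 1.3-fold higher in G9a-KO and 0 lower, among them *Gata6* (8.74-fold) and *Cubn* (56.3-fold). Their summed linear level, in units of the 75th percentile of the array, was 81.6 in G9a-KO and 5.84 in WT, with 0 of 17 at or below the median of all probe sets in G9a-KO and 6 of 17 in WT. The defining ESC markers were present on both arrays, all 10 above that median, with summed levels of 255.2 in G9a-KO and 261.8 in WT. Their median difference was -0.29, with 8 of 10 below 0, and 1 was higher and 4 lower by over 1.3-fold. The higher one was *Dppa5a*, at 6.59 in G9a-KO and 5.98 in WT. As the brightest of the 10 it weighs most in the sums, which therefore hide the lower values of most other ESC markers. Of 13 fibroblast markers, 3 were higher and 0 lower, with sums of 17.4 in G9a-KO and 17.5 in WT. Most of these sums was *Vim*, without which the other 12 summed to 3.13 in G9a-KO and 2.76 in WT. The higher ones were *Lum* (1.98-fold), *Col1a2* (1.78-fold) and *Twist1* (1.39-fold), and 7 of the 13 lay below the median on both arrays, *Lum*, *Col1a1* and *Col3a1* among them. Of 8 trophoblast markers, 6 were higher and 1 lower, with sums of 18.8 in G9a-KO and 14.0 in WT. The 4 over 2-fold higher were *Plac1* (2.83-fold), *Elf5* (2.63-fold), *Krt18* (2.25-fold) and *Krt8* (2.13-fold), while *Cdx2* lay below the median on both arrays. Whether a different mix of cells had a part in the cholesterol gene values was not tested. *Ehmt2*, which encodes G9a, lay at 0.51 in G9a-KO and 2.05 in WT by its brighter probe set (2.90-fold lower) and at -2.07 in G9a-KO and -2.27 in WT by the other, and where either lies relative to the deleted exons was not stated in the sources read here, so they do not check the label.

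The side branches were lower where they passed the threshold, and the fatty acid pathway, which SREBP factors also serve, held genes past it on both sides. Of 8 measured genes that use isoprenoids for other ends, 0 were over 1.3-fold higher and 4 lower (17.4% and 17.2% of all genes), with a median of -0.30. The lowest was *Fnta*, a subunit shared by the enzymes that attach farnesyl and geranylgeranyl groups to proteins, at 3.80 in G9a-KO and 4.79 in WT (1.99-fold lower, and 1.95-fold by its other probe set). *Coq2* (1.55-fold) and *Pdss2* (1.54-fold), which act in the synthesis of coenzyme Q, and *Pggt1b* (1.44-fold), a geranylgeranyl transferase subunit, were lower too. However, a second, dimmer probe set of *Pdss2* was 1.77-fold higher. The other probe sets of *Pggt1b* above the median were only 1.15-fold and 1.14-fold lower, so its call rests on the brightest. Of 7 fatty acid genes, 1 was higher and 3 were lower by the brightest probe set, beside the same shares of all genes, with a median of -0.015. *Me1*, the cytosolic malic enzyme that supplies NADPH, lay at 3.09 in G9a-KO and 0.75 in WT (5.05-fold higher). *Fasn*, the fatty acid synthase, lay at 2.16 in G9a-KO and 3.05 in WT (1.85-fold lower). The desaturase *Scd2* (1.49-fold) and *Acss2* (1.43-fold), an acetyl-CoA synthetase, were lower as well. The other probe sets of *Scd2* above the median differed by -0.017 and -0.61, and that of *Acss2* by -1.21. Genes of the cholesterol and fatty acid pathways thus stood on both sides of 0, *Cyp51* and *Idi1* in one and *Me1* and *Fasn* in the other.

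**Figure D4:**
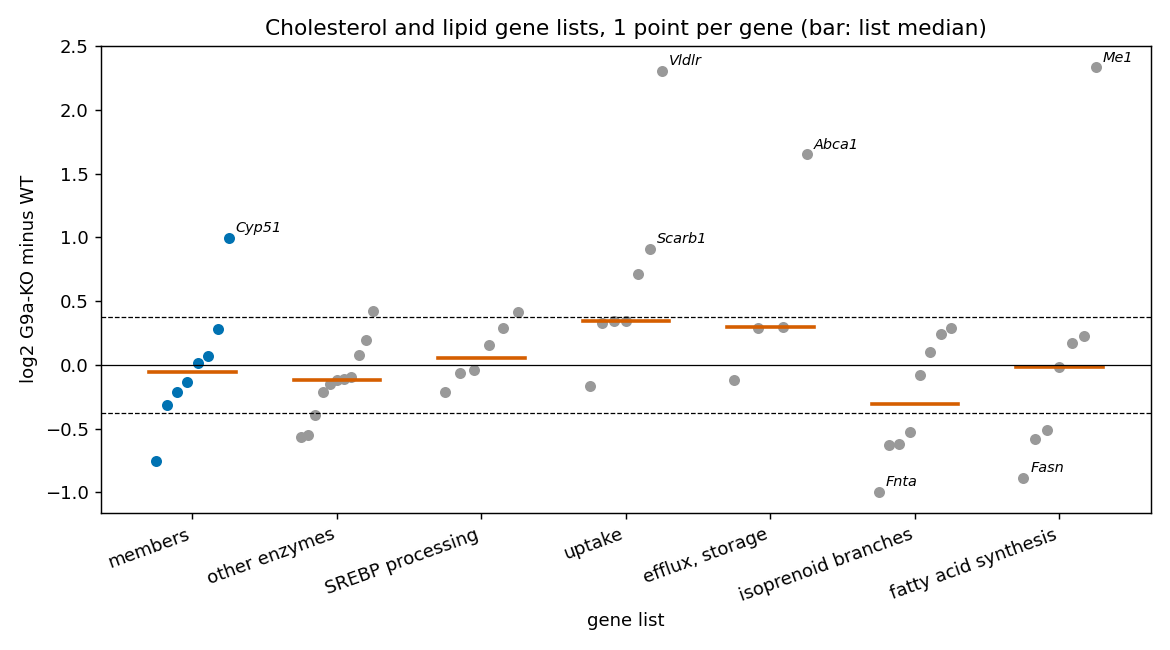
Log2 difference, G9a-KO less WT (vertical axis), for the 8 cholesterol genes (blue) and 6 lists of related genes (grey, horizontal axis), 1 point per gene by its brightest probe set, with orange bars at list medians and dashed lines at 1.3-fold. The median of the 8 genes lies at -0.059 and those of the uptake list and the efflux and storage list at 0.35 and 0.29, with *Vldlr*, *Abca1* and *Me1* far above the rest.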

How the data were processed

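Total RNA of 1 G9a-KO and 1 WT ESC culture was measured on Affymetrix mouse arrays with 45101 probe sets, from 200 ng of RNA labelled with biotin. The authors deposited log2 values from RMA, and the submitters' processing notes name R 3.2.1. The 75th percentile of the deposited values was 7.31 in G9a-KO and 7.37 in WT. It was subtracted from each array, as the methods of the study state, so a global difference in RNA cannot be seen, and the WT level was then taken from the G9a-KO level of each probe set with pandas 2.3.3 in Python 3.11.15. The study used 1.3-fold for this pair. Gene names of probe sets came from the platform annotation held by GEO, and all 8 members matched RefSeq by gene ID. Probe sets with several symbols were not used, and none of them named a member. The array files name no genome build, and coordinates belong to the RefSeq promoters alone. Each gene list was described by counts and its median. The genes named were all members, list genes past 1.3-fold, key regulators and up to 4 genes per marker list. *Fdft1*, *Mbtps1*, *Insig2*, *Dppa5a*, *Col1a1*, *Col3a1* and *Cdx2* were added after their values were seen. Members and lists were chosen with earlier results of these data known. The steps were tested on simulated data. The alternatives were no shift, median centring, quantile normalization, lowess correction (span 0.3), a filter on dim probe sets, leaving out the _s_at and _x_at probe sets (which may match several transcripts), and 3 other ways to pick or pool the probe sets of a gene, and a value counted as kept where it stayed on its side of 1.3-fold. With 1 array per group no p-value was computed, and precision is limited by that number.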

Additional observations from a re-analysis of the deposited data

How the results depend on the processing

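*Idi1* stayed over 1.3-fold lower (-0.86 to -0.75) and *Cyp51* over 1.3-fold higher (0.52 to 1.02) in all 8 alternatives, and the median of the 8 genes ran from -0.17 to -0.054. Lowess correction put *Cyp51* past 2-fold (1 gene in place of 0). Members over 1.3-fold lower were 2 under median centring, which lowers every difference by 0.10, and 2 without the _s_at and _x_at probe sets, where *Hmgcs1* joined *Idi1*. They were 3 with the probe set of the largest absolute difference or with at least 1 probe set past the fold, which made 4 members higher or lower in place of 2. The median of *Hmgcs1*, *Idi1* and *Fdps* was then -0.42 under median centring and -0.40 without those probe sets or with the largest absolute difference. With the mean over probe sets, 2 of the other synthesis enzymes passed 1.3-fold in place of 4. The median of the uptake list was 0.68 with the largest absolute difference, in place of 0.35. The sign turned in 4 alternatives for *Fdps* and in 3 for *Sc5d*, and *Sc5d* passed 1.3-fold (-0.66) with the largest absolute difference. With 1 array per group no array could be left out. The median of *Sqle*, *Cyp51* and *Sc5d* ran from -0.21 (mean over probe sets, and largest absolute difference) through -0.030 (median centring) to 0.098, in place of 0.072. *Lss* turned to 0.19 without the _s_at and _x_at probe sets. Signal over background limits the probe sets below the median, 3 of the 19 of the 8 genes.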
